A study of Mus musculus with 2 samples.

Results

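The 8 genes described here are Lbr, Lmna, Lmnb1, Lmnb2, Cbx1, Cbx3, Cbx5 and Casz1, which encode proteins of the nuclear lamina, heterochromatin proteins and a regulator of rod nuclear organisation. They were chosen by gene symbol from the 32227 genes of the deposited gene table, and all 8 had transcripts in both libraries. The libraries hold nuclei of whole retinas from C57 BL/6J mice at postnatal day 21, measured by single-nucleus RNA-seq with a 3′ particle-templated kit (PIPseq). The Cre- library, labelled as wild type, held 7357 nuclei of animals from breeders without the Cre transgene, and the labels do not say whether these animals carried loxP alleles. The Tet tcKO library held 6766 nuclei of animals that carried loxP alleles of Tet1, Tet2 and Tet3 and the Chx10-Cre-GFP transgene. This transgene is active in retinal progenitor cells and is mosaic, and according to the study's methods the animals were bred to carry more than a single copy to limit this. The reaction of each genotype took in 2 pools of dissociated nuclei, each made from at least 2 animals. The deposited tables do not separate the pools, so each genotype is 1 library and no test between genotypes was possible.

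The nuclear lamina is a mesh of lamin proteins under the inner nuclear membrane, and it holds heterochromatin at the nuclear edge in most cells. The lamin B receptor, encoded by Lbr, and the A-type lamins, encoded by Lmna, provide the known tethers for this. Mature rods of nocturnal mammals lack both tethers and gather their heterochromatin in the centre of the nucleus, an inverted arrangement that cones and other retinal neurons do not have. Heterochromatin protein 1, in the forms encoded by Cbx5, Cbx1 and Cbx3, binds methylated histone H3 in silent chromatin. Casz1 is a zinc finger transcription factor known to act in rods on the organisation of the nucleus. TET enzymes, the products of the deleted genes, oxidise methylated cytosine in DNA.

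In photoreceptors, Casz1 and Lmnb1 were lower in the Tet tcKO library, and the other 6 genes were 1.20 to 1.39 times as high there as in Cre-. The interval for Lmna held no difference, and the intervals of 5 of these 6, all but Cbx1, held the median of all genes tested, which was itself above 0 at a log2 ratio of 0.23. None of the 8 differed by 2-fold or more. Casz1 went from 903 counts per 1000000 transcripts (CPM) in the Cre- library to 679 CPM in the Tet tcKO library, and Lmnb1 from 50.3 to 39.5 CPM. Lbr and Lmna, the genes of the tethers, had low counts, at 15.8 and 10.8 CPM in Cre- and 22.0 and 14.3 CPM in Tet tcKO. Among classes, Casz1 had the clearest order, with photoreceptors 4.48 times as high as amacrine and retinal ganglion cells together in Cre-.

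A few facts of the libraries bear on these values. The median nucleus held 1107 transcripts in Cre- and 1836.5 in Tet tcKO, the library totals were 11510585 and 16590747, and 13 mitochondrial genes took 5.47% and 1.76% of them. Between the libraries, 1 barcode sequence was shared. Summed over all nuclei, Tet1 stood at 50.2 and 61.2 CPM, Tet2 at 105 and 139 CPM and Tet3 at 180 and 174 CPM in Cre- and Tet tcKO, and since counts cover whole genes and not the floxed exons, these levels do not check the deletion. The Tet tcKO library held 6 rod-annotated nuclei, so rods and cones were pooled as photoreceptors, 5479 nuclei in Cre- and 3231 in Tet tcKO. By annotation, Cre- rods had a median of 1025.5 transcripts, Cre- cones 3736 and Tet tcKO cones 1715. Leading genes did not go against the annotation in any cluster of cones, amacrine, horizontal or ganglion cells, although several of the cone and amacrine clusters, the Cre- cone cluster among them, had none of their own class's markers among the 10 leading genes. They went against 1 or 2 of 15 rod clusters depending on how genes were ranked, and, by summed counts, against 4 of 9 bipolar clusters and 2 of 3 Müller clusters, whose levels are given for each library without comparison between libraries. Most rod clusters also had no rod marker among their 10 leading genes by either ranking. A cluster with no marker of any class passes this check, so passing does not by itself affirm a label. Rod markers summed to 11771 CPM in Cre- photoreceptors and 6439 CPM in Tet tcKO photoreceptors, and cone markers to 1803 and 6485 CPM. The 265 Cre- nuclei annotated as cones were near Cre- rods in the cone gene Gnat2, at 88.2 CPM (71.0 to 108) against 84.2 CPM (77.3 to 91.5). Tet tcKO cones had 515 CPM. The rod gene Nrl stood at 550 CPM (505 to 597) in these Cre- nuclei, above the 435 CPM (419 to 452) of Cre- rods with intervals apart. Nr2e3 stood at 338 CPM (304 to 376) and 300 CPM (287 to 313), with overlapping intervals. The cone gene Arr3 stood at 880 CPM (824 to 940), above the 735 CPM (715 to 756) of Cre- rods with intervals apart. Tet tcKO cones had 2003 CPM of Arr3.

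Casz1 lies on chromosome 4 (GRCm39, 148888788 to 149039346, plus strand), and RefSeq places a start at its 5′ end and another inside the gene. The 250 bases before each start are shown because Casz1 had the most transcripts of the 8 genes and the narrowest interval below 0 in photoreceptors, and because TET enzymes act at CpG sites. Capitals mark TAATCC on either strand, which is the core sequence bound by the photoreceptor factor Crx.
Casz1 5′ start, chr4:148888599-148888848: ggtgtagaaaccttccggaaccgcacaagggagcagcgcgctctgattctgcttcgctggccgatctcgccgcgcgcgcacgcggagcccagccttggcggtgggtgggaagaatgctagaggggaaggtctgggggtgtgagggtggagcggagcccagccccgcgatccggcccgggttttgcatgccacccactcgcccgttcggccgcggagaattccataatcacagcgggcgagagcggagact
Casz1 internal start, chr4:148973554-148973803: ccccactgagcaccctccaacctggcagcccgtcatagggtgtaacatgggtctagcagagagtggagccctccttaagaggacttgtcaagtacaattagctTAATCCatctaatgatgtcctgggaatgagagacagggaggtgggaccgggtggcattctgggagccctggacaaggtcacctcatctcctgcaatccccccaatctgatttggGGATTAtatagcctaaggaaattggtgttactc
The window at the 5′ start held 27 CpG and no TAATCC. The internal window held 2 CpG and 2 matches, without overlap between them. Over 32851 windows of the same length before RefSeq starts (GRCm38.p6 table, the Casz1 windows placed on GRCm39 by exact match), the median was 6 CpG, 6.25% had at least 1 match and 0.295% at least 2. Of the 7 genes with windows in this table, 12 windows in all, Cbx1 had 1 further match in a window of 16 CpG, and the other windows, with 1 to 31 CpG, had none. These matches describe letters in a window and not binding.

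Lbr encodes the lamin B receptor, an inner nuclear membrane protein that binds B-type lamins and HP1. The gene lies on chromosome 1 (GRCm39, 181641631 to 181672984, minus strand). In photoreceptors, 120 Lbr transcripts in Cre- gave 15.8 CPM (95% interval 13.1 to 18.9) and 163 in Tet tcKO gave 22.0 CPM (18.8 to 25.6). The log2 ratio of Tet tcKO over Cre- was 0.47 (0.12 to 0.83), so the Tet tcKO library was higher although the intervals of the levels just overlapped. All intervals in the text are exact and cover counting error only, not differences between animals or preparations. The Cre- photoreceptors were nearly all annotated as rods and those of Tet tcKO nearly all as cones, so in this pooled comparison genotype and annotated photoreceptor type cannot be told apart. Within cone-annotated nuclei the point values had the opposite order. The 265 Cre- cones stood at 24.2 CPM (15.7 to 35.8) and the Tet tcKO cones at 22.0 CPM (18.8 to 25.7). These intervals overlapped, and the log2 ratio was -0.14. Those Cre- nuclei had Gnat2 and Nr2e3 within counting error of Cre- rods, and Nrl and Arr3 above them. Cre- rods stood at 14.5 CPM (11.7 to 17.7), below Tet tcKO cones with intervals apart and overlapping Cre- cones.

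Lmna encodes the A-type lamins, on chromosome 3 (88387454 to 88417299, minus strand). Photoreceptors of Cre- held 82 Lmna transcripts, 10.8 CPM (8.61 to 13.4), and those of Tet tcKO held 106, 14.3 CPM (11.7 to 17.3). The log2 ratio of 0.40 (-0.03 to 0.84) was not separated from 0 at this depth. By annotation, Cre- rods had 10.4 CPM (8.07 to 13.2), Cre- cones 13.6 CPM (7.42 to 22.8) and Tet tcKO cones 14.3 CPM (11.7 to 17.3), all with overlapping intervals. Lmna transcripts were therefore counted in rod-annotated nuclei at a low level, and cones and rods of Cre- could not be told apart by it. The level in Cre- rods rested on 68 transcripts in 5214 nuclei. Markers of other classes were present in photoreceptor nuclei too, and the part of RNA from other cells in this count was not tested.

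The B-type lamins, which stay attached to the inner membrane, had ratios of opposite sign. Lmnb1, on chromosome 18 (56840590 to 56886496, plus strand), stood at 50.3 CPM (45.4 to 55.6) in Cre- photoreceptors and 39.5 CPM (35.1 to 44.3) in Tet tcKO photoreceptors. The intervals did not overlap, and the log2 ratio was -0.35 (-0.57 to -0.12). Lmnb1 in cone-annotated nuclei alone was 58.2 CPM (44.4 to 74.9) in Cre- and 39.6 CPM (35.2 to 44.4) in Tet tcKO, again lower in Tet tcKO. Lmnb2, on chromosome 10 (80737037 to 80754110, minus strand), stood at 25.9 CPM (22.4 to 29.8) and 34.6 CPM (30.4 to 39.1), a log2 ratio of 0.42 (0.14 to 0.69). Its intervals did not overlap either, with the Tet tcKO library higher.

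The 3 HP1 genes were all higher in Tet tcKO photoreceptors by total counts. Cbx1, which encodes HP1 beta (chromosome 11, 96679933 to 96700423, plus strand), had 67.3 CPM (61.6 to 73.4) in Cre- and 90.4 CPM (83.7 to 97.5) in Tet tcKO, with a log2 ratio of 0.43 (0.26 to 0.59). Cbx3, which encodes HP1 gamma (chromosome 6, 51447082 to 51460691, plus strand), stood at 52.4 CPM (47.4 to 57.8) and 67.6 CPM (61.8 to 73.8), for a log2 ratio of 0.37 (0.17 to 0.56). Cbx5, which encodes HP1 alpha, the form concentrated in constitutive heterochromatin (chromosome 15, 103099505 to 103148419, minus strand), stood at 121 CPM (113 to 129) and 145 CPM (136 to 154), a log2 ratio of 0.26 (0.13 to 0.39). For each of the 3, the intervals of the libraries were apart. Within cone-annotated nuclei the log2 ratio was 0.76 for Cbx3 and 0.62 for Cbx5, since Cre- cones had the lowest levels of both among the photoreceptor groups, 39.8 CPM (28.5 to 53.9) and 94.0 CPM (76.3 to 115). For Cbx3 the interval overlapped that of Cre- rods (48.9 to 60.4). Cre- cones were also the deepest of these groups. Pooled Cre- photoreceptors of 3000 to 10000 transcripts stood at 44.8 CPM for Cbx3 and 101 CPM for Cbx5. The part of depth in these cone ratios was not tested. Cbx1 stood at 72.7 CPM (57.2 to 91.2) in Cre- cones and 90.4 CPM (83.7 to 97.5) in Tet tcKO cones, with overlapping intervals. The Cbx3 count is uncertain, because the annotation names 8 Cbx3 pseudogenes and the gene table holds none of them.

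Of the 8 genes, Casz1 had the interval farthest from 0 in photoreceptors. It stood at 903 CPM (882 to 925) in Cre-, from 6842 transcripts, and 679 CPM (661 to 698) in Tet tcKO, from 5034, a difference of -24.8% and a log2 ratio of -0.41 (-0.46 to -0.36). The intervals of the levels did not overlap. Cre- rods and Cre- cones had overlapping intervals, 896 CPM (874 to 920) and 945 CPM (887 to 1007), and both were above the 679 CPM (660 to 698) of Tet tcKO cones. By intervals, the Cre- nuclei annotated as cones overlapped Cre- rods in Nr2e3 and Gnat2 and stood above them in Nrl and Arr3. They were thus above rods in a rod gene as well as in a cone gene. These values therefore do not compare Tet tcKO cones with a clearly distinct set of Cre- cones.

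**Figure D1:**
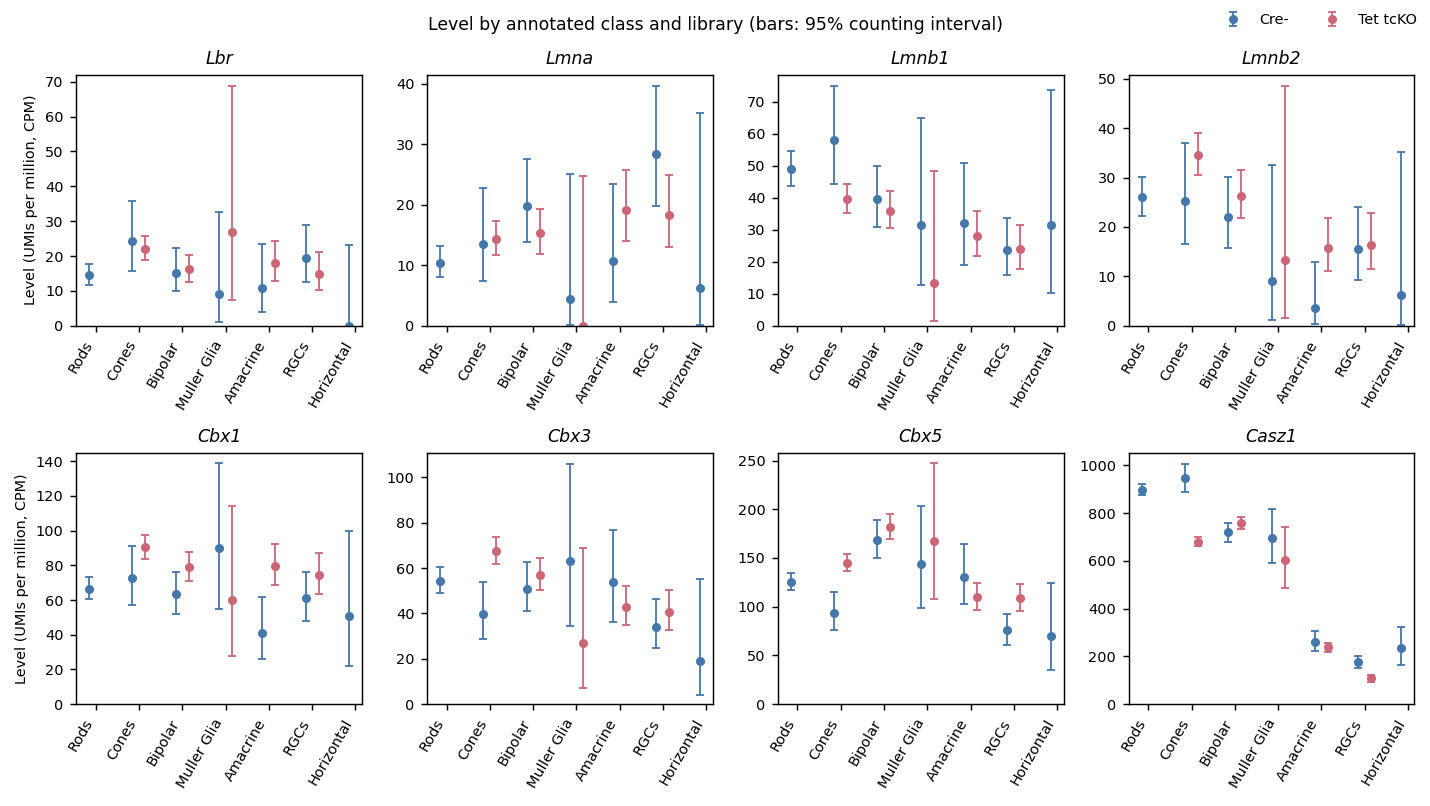
Level in CPM (vertical axis) of each of the 8 genes in every annotated class with at least 50 nuclei (horizontal axis), blue for Cre- and red for Tet tcKO, with bars for the exact 95% counting interval. Casz1 falls into a high group of photoreceptors, bipolar and Müller nuclei between 603 and 945 CPM and a low group of amacrine, ganglion and horizontal nuclei between 108 and 261 CPM, while the other genes have mostly overlapping bars.

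Counts of genes give these differences a scale. Of the 8 genes, 0 differed by 2-fold or more in photoreceptors, where 9.25% of the 11377 genes at 10 CPM or more did (6.67% higher and 2.58% lower in Tet tcKO). Scaling by trimmed mean (TMM) turned that split over all genes from 759 higher and 293 lower to 430 and 464, and left the 8 genes at 0. The median log2 ratio was 0.39 over the 8 genes and 0.23 over all genes tested, so a ratio near 0.23 is the middle of this comparison. Taken relative to that median gene, the whole interval lay above it for Cbx1 and below it for Lmnb1 and Casz1, and the other 5 genes had intervals that held it. Casz1 had a higher ratio than 11.4% of the tested genes and Lmnb1 than 13.4%, while Cbx1 had a higher ratio than 65.7% and Lbr than 69.5%.

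**Figure D2:**
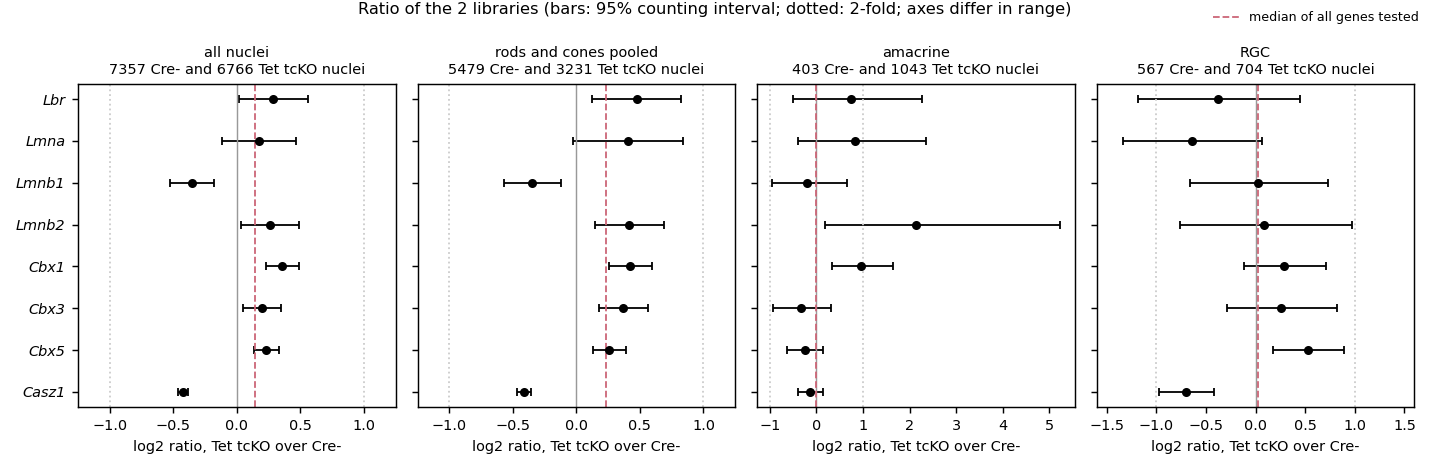
Log2 ratio of Tet tcKO over Cre- (horizontal axis) for the 8 genes in all nuclei, photoreceptors, amacrine cells and ganglion cells (RGC), with bars for the exact 95% counting interval. The red dashed line is the median of all genes tested and the dotted lines mark 2-fold, and Casz1 and Lmnb1 lie left of 0 in all nuclei and in photoreceptors, where Casz1 is at -0.42 and -0.41.

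Clusters of the deposited annotation showed how much these levels varied inside a library. Over the 14 Cre- rod clusters with at least 50 nuclei, Casz1 ranged from 597 to 1127 CPM with a median of 852 CPM. Over the 8 Tet tcKO cone clusters it ranged from 545 to 751 CPM with a median of 688 CPM. All 8 cone clusters were below the rod median, yet only 1 was below the lowest rod cluster, so the clusters overlapped. Cbx1 had the least overlap, with 52.9 to 79.8 CPM over rod clusters and 78.0 to 103 CPM over cone clusters, 7 of 8 cone clusters being above the highest rod cluster. The same count was 4 of 8 for Cbx3, 3 of 8 for Lbr and Lmnb2, 1 of 8 for Lmna and 0 of 8 for Cbx5. For Lmnb1, 7 of 8 cone clusters were below the rod median of 47.7 CPM, and none was outside the rod range of 28.6 to 62.6 CPM. Clusters are parts of 1 library and not replicates.

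**Figure D3:**
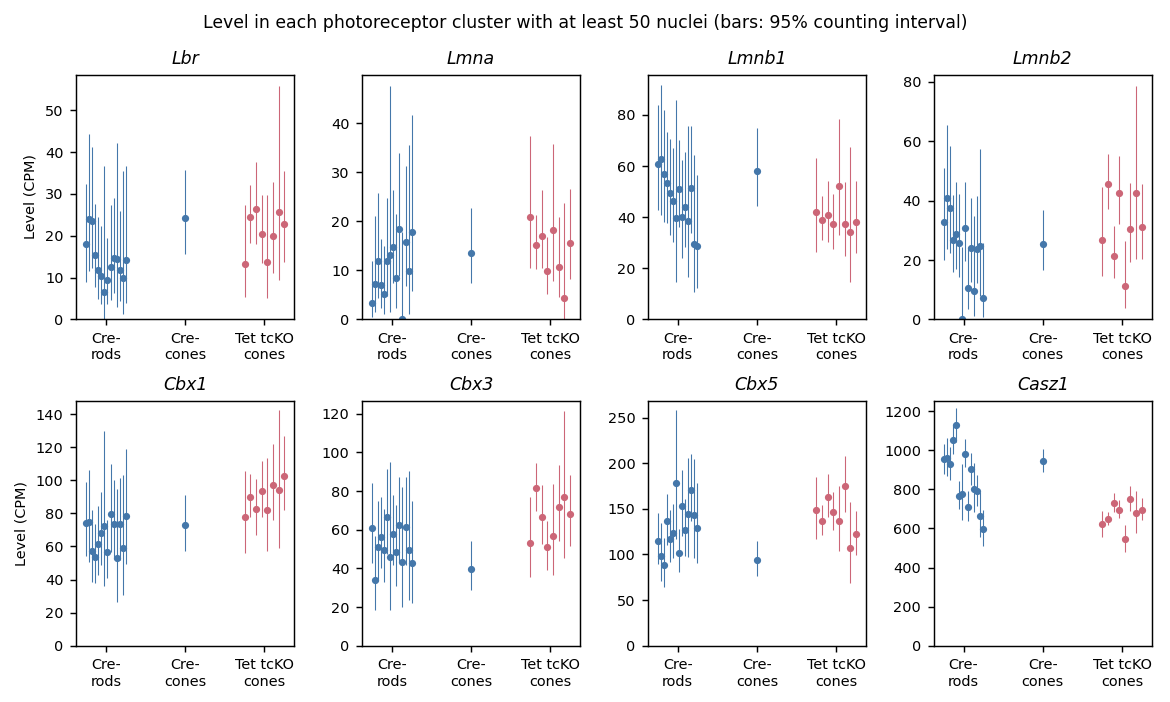
Level in CPM (vertical axis) of the 8 genes in each photoreceptor cluster with at least 50 nuclei, grouped on the horizontal axis as Cre- rods (14 clusters), Cre- cones (1 cluster) and Tet tcKO cones (8 clusters), with bars for the exact 95% counting interval. The Cbx1 points of Tet tcKO cones sit at 78.0 to 103 CPM, with 7 of 8 above the highest rod cluster at 79.8 CPM, and those of Casz1 sit at 545 to 751 CPM in its lower part.

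Depth per nucleus differed between the libraries, so photoreceptors were also compared in bins of depth. In the 4 bins from 1000 transcripts upwards, Casz1 was between 910 and 984 CPM in Cre- and between 670 and 712 CPM in Tet tcKO. Its log2 ratio stayed between -0.47 and -0.43, with the interval below 0 in 4 of 4 bins. In the bin of 500 to 1000 transcripts, which held 103 Tet tcKO nuclei, Casz1 stood at 836 and 793 CPM with a log2 ratio of -0.08 (-0.44 to 0.27). Lmnb1 was lower in Tet tcKO in 4 of the 4 upper bins, at log2 ratios of -0.53 to -0.22, though each interval held 0. Cbx1 and Cbx5 were higher in 4 of 4 bins, at 0.14 to 0.82 and 0.06 to 0.58, with the interval above 0 in 2 bins and 1 bin. The sign differed between bins for Lmnb2 (-0.10 to 0.73) and Cbx3 (-0.14 to 0.89), while Lbr and Lmna were above 0 in 4 of 4 bins, with the interval above 0 in 1 bin for Lbr and in 0 for Lmna.

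**Figure D4:**
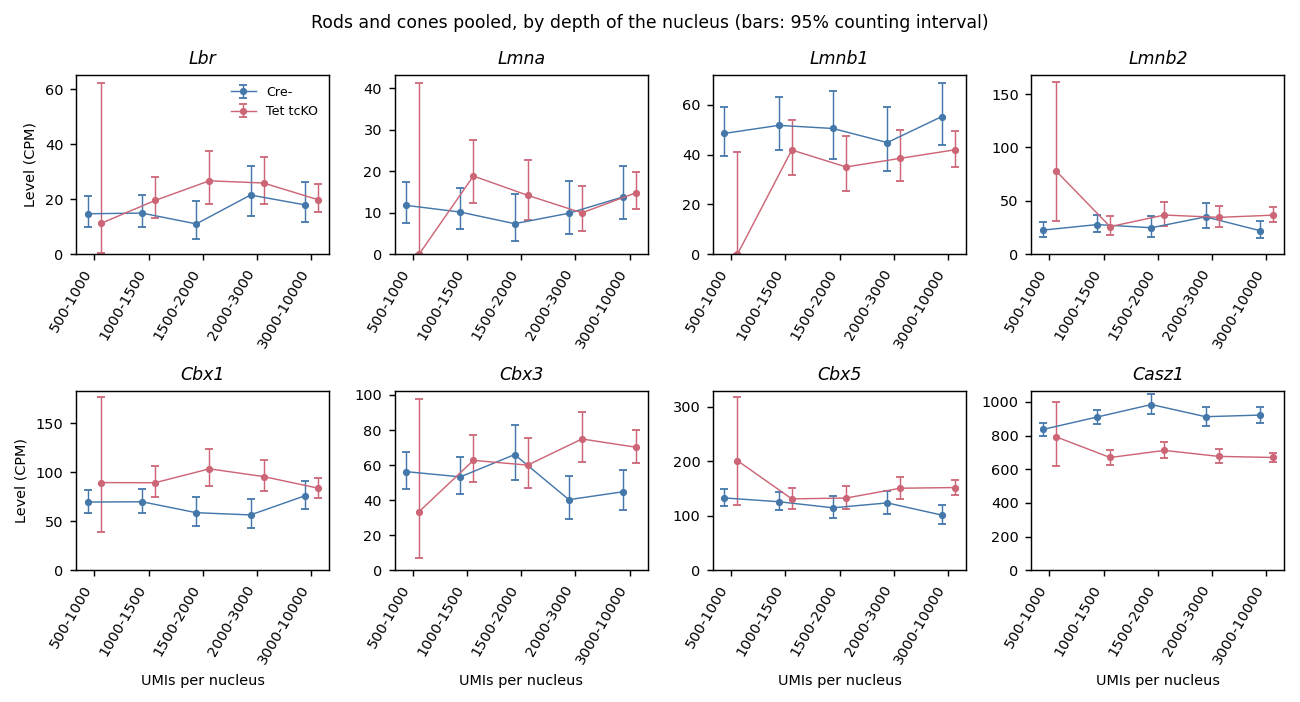
Level in CPM (vertical axis) of the 8 genes in photoreceptors split by transcripts per nucleus (horizontal axis, UMIs), blue for Cre- and red for Tet tcKO, with bars for the exact 95% counting interval. The Casz1 lines keep apart from 1000 transcripts on, at 910 to 984 CPM and 670 to 712 CPM, and the first Tet tcKO point rests on 103 nuclei.

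Over all nuclei, which also takes in any shift of class shares, 0 of the 8 genes differed by 2-fold, where 5.66% of 11158 genes did (3.18% higher and 2.48% lower in Tet tcKO). These were 355 higher and 277 lower, and 271 and 361 under TMM. Casz1 stood at 753 CPM (737 to 769) in Cre- and 561 CPM (550 to 573) in Tet tcKO, with a log2 ratio of -0.42 (-0.47 to -0.38). With the class shares of Cre- applied to both libraries, this ratio was -0.32. The median was 0.22 over the 8 genes and 0.15 over all genes tested. Lmnb1 and Casz1 were again the 2 genes with the interval below the median gene, and Cbx1 the only one with it above.

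Outside the photoreceptors, ganglion cells and amacrine cells were compared, within the limits of the marker check given above. In ganglion cells, 0 of the 8 genes differed by 2-fold, beside 6.72% of 10262 genes (3.53% higher and 3.20% lower), and the median was 0.05 over the 8 genes and 0.02 over all genes. Casz1 stood at 175 CPM (152 to 200) in Cre- and 108 CPM (94.3 to 123) in Tet tcKO ganglion cells, a log2 ratio of -0.70 (-0.97 to -0.42). Cbx5 stood at 75.6 CPM (61.0 to 92.6) and 109 CPM (95.2 to 124), a log2 ratio of 0.52 (0.17 to 0.89). Lmna had 28.4 CPM (19.8 to 39.6) and 18.3 CPM (13.0 to 25.0), with a log2 ratio whose interval held 0 (-1.33 to 0.06), as did those of the remaining 5 genes.

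Different clusters held most ganglion cells of each library, which matters for Casz1. Cluster 8 held 69.5% of the Cre- ganglion cells and 4.12% of the Tet tcKO ones, and clusters 15 and 31 held 30.8% and 38.8% of the Tet tcKO ones. In cluster 2, which had 111 Cre- and 185 Tet tcKO nuclei, Casz1 stood at 90.5 CPM (65.8 to 122) and 88.3 CPM (69.0 to 111). Cluster 31 had 236 CPM (144 to 364) and 139 CPM (108 to 178), and cluster 8 had 230 CPM (194 to 270) in Cre-. The Casz1 log2 ratio was -0.04 (-0.60 to 0.54) in cluster 2 and -0.76 (upper bound 0.04) in cluster 31, so in neither was it separated from 0 at this depth. Cbx5 in the same clusters was higher in Tet tcKO with overlapping intervals, at 67.9 and 101 CPM in cluster 2 and 70.7 and 148 CPM in cluster 31, and its ratios held 0 too. Lbr in cluster 31 rested on 6 transcripts in Cre- and 4 in Tet tcKO, with a log2 ratio of -3.04 (-5.31 to -0.97) that was opposite in sign to the photoreceptor value. The 8 ganglion cell markers, summed over ganglion cells, stood at 1555 CPM in Cre-, less than the rod markers there, and at 1516 CPM in Tet tcKO. The 9 rod markers, summed over ganglion cells, went from 2280 CPM in the Cre- library to 963 CPM in the Tet tcKO library, and the 10 cone markers from 554 to 1294 CPM, with none at 0. Their part in the Casz1 and Cbx5 levels was not tested.

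In amacrine cells, 1 of the 8 genes differed by 2-fold or more, beside 12.9% of 10831 genes (6.44% in each direction). These were 697 higher and 698 lower, and 905 and 555 under TMM. Lmnb2 rested on 2 transcripts in the 403 Cre- amacrine nuclei and 37 in the 1043 Tet tcKO ones, 3.58 and 15.8 CPM, with a log2 ratio of 2.14 (0.19 to 5.24). Cbx1 stood at 41.2 CPM (26.1 to 61.8) and 79.8 CPM (68.8 to 92.1), a log2 ratio of 0.96 (0.33 to 1.65), just under 2-fold. Amacrine markers summed over these nuclei stood at 1973 CPM in Cre-, less than the rod markers there, and at 2293 CPM in Tet tcKO. In the same nuclei the summed rod markers went from 2961 to 1317 CPM and the cone markers from 845 to 2030 CPM, with none at 0. The part of rod and cone transcripts in the Lmnb2 and Cbx1 values was not tested. Casz1 was within counting error, at 261 CPM (221 to 307) and 237 CPM (218 to 258), and the other 5 intervals also held 0. The median was 0.30 over the 8 genes and -0.01 over all genes. Here too the clusters differed, cluster 27 holding 63.5% of the Cre- amacrine nuclei and 2.01% of the Tet tcKO ones. No amacrine marker was among the leading genes of cluster 27 by either ranking. In cluster 13, present in both with 72 and 122 nuclei, Lmnb2 had 1 and 2 transcripts, and Cbx1 stood at 51.6 CPM (18.9 to 112) and 101 CPM (65.8 to 148).

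Within each library, the classes were ordered for each gene. In Cre-, Casz1 ran from cones (945 CPM) and rods (896 CPM) through bipolar (719 CPM) and Müller nuclei (698 CPM) to amacrine (261 CPM), horizontal (234 CPM) and ganglion cells (175 CPM). Neighbouring intervals were apart between rods and bipolar nuclei and between Müller and amacrine nuclei, and overlapped elsewhere. In Tet tcKO the order was bipolar (759 CPM), cones (679 CPM), Müller (603 CPM), amacrine (237 CPM) and ganglion cells (108 CPM), with only cones and Müller nuclei overlapping. The Tet tcKO bipolar clusters ranged from 277 to 1370 CPM. Clusters 22, 35, 39 and 41, where leading genes went against the annotation by summed counts, stood at 1370, 782, 733 and 1040 CPM. Clusters 42 and 43, where they did not, stood at 277 and 510 CPM, below cones, so the bipolar rank depends on the former clusters. The 37 horizontal nuclei and 6 rod nuclei of Tet tcKO were too few to rank. For Cbx5, neighbours were apart between rods (125 CPM) and cones (94.0 CPM) in Cre- and between cones (145 CPM) and amacrine cells (110 CPM) in Tet tcKO. The Cre- rods and cones also differed in depth. For the other 6 genes no neighbours in the order were apart. Lmna ran in Cre- from ganglion cells (28.4 CPM) and bipolar nuclei (19.8 CPM) to cones, amacrine cells, rods and the few transcripts of horizontal and Müller nuclei. Lbr gave no transcript in the 90 Cre- horizontal nuclei, where 3 counts of the 158316 transcripts, the limit taken for a count of 0, would be 18.9 CPM.

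Photoreceptors were set against amacrine and ganglion cells together to show where the 8 genes stood out. In Cre-, Casz1 was 4.48 times as high in photoreceptors (log2 ratio 2.16, 2.01 to 2.32) and Lmnb2 2.20 times as high (1.14, 0.49 to 1.86). These were 2 of 8 genes at 2-fold or more, beside 16.6% of 11053 genes. Lmna was the only 1 of the 8 lower by that amount (-1.08, -1.64 to -0.50), beside 8.87% of genes, at 10.8 CPM in photoreceptors and 22.9 CPM in the other cells, where 35 of 41 transcripts came from ganglion cells. In Tet tcKO, Casz1 (1.95, 1.84 to 2.06) and Lmnb2 (1.10, with a lower bound of 0.72) were again the 2 genes past 2-fold higher, beside 26.0% of 11500 genes. None was lower by that amount, beside 7.92% of genes, and Lmna stood at -0.39 (-0.82 to 0.04). Lbr was level in Cre- (-0.08, -0.67 to 0.55) and stood at 0.41 (0.01 to 0.83) in Tet tcKO, where the median gene was at 0.36.

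Transcripts of photoreceptor genes were present in every class, which bears on the Casz1 levels outside photoreceptors. Nrl, the rod fate factor, which amacrine and ganglion cells should lack, was 4.83 times as high in photoreceptors as in those cells in Cre-, near the Casz1 value, and 6.78 times as high in Tet tcKO. Its level was 86.2 CPM in Cre- ganglion cells and 26.3 CPM in those of Tet tcKO. On the log2 scale the Casz1 and Nrl ratios had overlapping intervals in Cre- (2.01 to 2.32 and 2.05 to 2.50), and in Tet tcKO the Casz1 ratio was the smaller with intervals apart (1.84 to 2.06 and 2.52 to 3.01). Over the 4 photoreceptor genes read this way, the Cre- ratios ran from 3.45 for Gnat2 to 5.93 for Nr2e3, a range that held the 4.48 of Casz1, and those of Tet tcKO were all above the 3.87 of Casz1, up to 7.19 for Gnat2. The part of photoreceptor RNA in the Casz1 level of amacrine and ganglion cells was not tested. In bipolar nuclei, the cone gene Arr3 stood at 718 CPM in Cre-, against 735 CPM in rods, and at 1529 CPM in Tet tcKO, so the bipolar Casz1 levels carry the same reservation. In photoreceptors, bipolar markers summed to 3454 and 2564 CPM in Cre- and Tet tcKO, and Müller markers to 1085 and 1012 CPM. Amacrine markers summed there to 829 and 1161 CPM, ganglion cell markers to 444 and 293 CPM and horizontal markers to 299 and 236 CPM. Endothelial markers summed to 245 and 196 CPM and those of microglia to 18.5 and 24.8 CPM. Pericyte markers summed to 27.2 and 22.9 CPM and those of retinal pigment epithelium to 30.9 and 18.2 CPM. No listed marker was at 0, and the part of these classes in the lamin values was not tested.

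The wider machinery of the nuclear edge and of silent chromatin was read from 4 lists of genes. In photoreceptors, 0 genes of the 4 lists at 10 CPM or more differed by 2-fold, beside the 9.25% given above. Listed genes under 10 CPM were not counted. The 18 genes of the inner nuclear membrane and of the LINC complex, which links the nucleus to the cytoskeleton, had a median log2 ratio of 0.40. Their lowest were Syne1 and Syne3, which encode nesprins of that link, at -0.92 and -0.91, and their highest were Sun1, the nesprin partner in the inner membrane, at 0.91, and Ankle2 at 0.68. Syne1 went from 451 to 239 CPM and Sun1 from 52.5 to 98.9 CPM, so members of the same bridge lay at both ends of the list.

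Makers and partners of heterochromatin, 16 of 18 genes being at 10 CPM or more, had a median of 0.33. Atrx, a chromatin remodeller that binds HP1, went from 723 CPM in the Cre- library to 417 CPM in the Tet tcKO library, at -0.79 (-0.86 to -0.73), and Smchd1 at -0.35 (-0.47 to -0.24). The histone H3 lysine methyltransferase Suv39h1 was at 0.78 (0.45 to 1.11) and Trim28, a corepressor that recruits HP1, at 0.87 (0.70 to 1.04). The 13 genes of the NuRD deacetylase complex had a median of 0.15, from Mbd2 at -0.37 and Mta3 at -0.12 to Hdac2 at 0.63 and Rbbp7 at 0.99. Linker histones had 2 of 7 measured, H1f2 at -0.11 and H1f0 at 0.53.

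**Figure D5:**
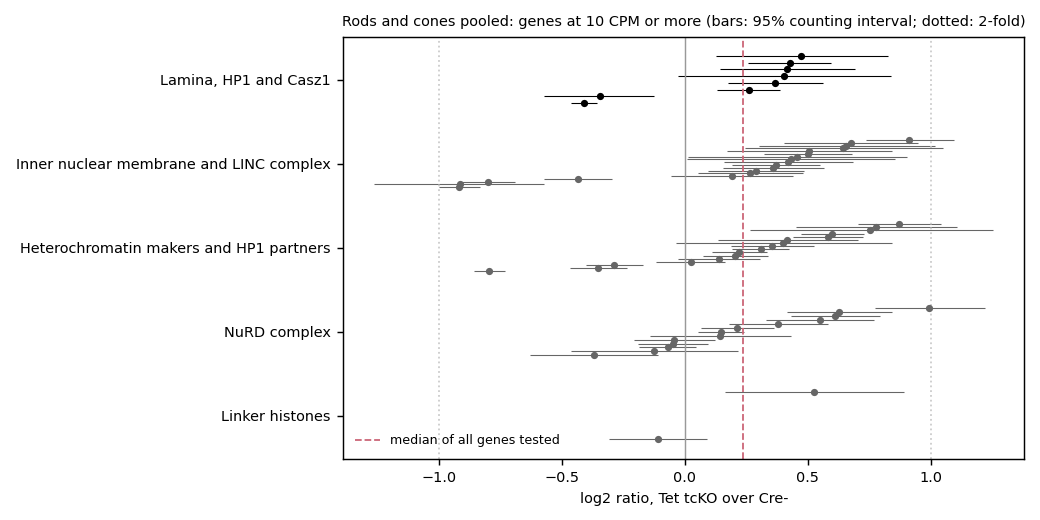
Log2 ratio of Tet tcKO over Cre- in photoreceptors (horizontal axis) for every gene at 10 CPM or more of the 8 genes described (black) and of the 4 related lists (grey), 1 row per list, with bars for the exact 95% counting interval. No point passes the dotted 2-fold lines, and the membrane list spans from -0.92 to 0.91 around the median of all genes tested (red dashed line at 0.23).

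In ganglion cells, 0 genes of these lists at 10 CPM or more differed by 2-fold. The medians were 0.05 for the membrane list, -0.05 for the heterochromatin list and 0.08 for NuRD, beside 0.02 over all genes. In amacrine cells, 1 of 15 membrane genes was higher by 2-fold, 1 of 15 heterochromatin genes and 1 of 2 linker histones were lower, beside 6.44% of all genes in each direction. The membrane gene rested on 6 Cre- transcripts and the heterochromatin gene on 8. Their log2 intervals held 0, at -0.004 to 2.71 and -2.49 to 0.28. The linker histone rested on 12 Cre- transcripts, with an interval of -2.62 to -0.30. The medians of the first 2 lists were -0.45 and -0.19 in amacrine cells, beside -0.01 over all genes, and 0.40 and 0.33 in photoreceptors, beside 0.23, and the difference between cell classes was not tested.

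The genes whose levels ran most like those of each member were sought over 12 groups of class and library, among 8302 genes. Casz1 was most like Rpgrip1 and Tulp1, both known as photoreceptor genes, with r = 0.98 for each. Lbr was most like Mest (0.98) and Kdelr1 (0.98), Lmna like Cwc22 (0.97) and Cx3cl1 (0.96), and Lmnb1 like Pitpnm2os2 and Phax (both 0.97). Lmnb2 was most like Usp30 and Zfp160 (both 0.93), Cbx1 like Vdac3 (0.94) and Bzw1 (0.93), Cbx3 like Dph7 and Rab3a (both 0.93), and Cbx5 like Shank2 and Atn1 (both 0.91). The groups share libraries and depth, several hold few transcripts of these genes, and the values describe likeness over these 12 points alone. Lbr had 0 transcripts in Cre- horizontal nuclei and Lmna had 0 in Tet tcKO Müller nuclei. On the log2(CPM + 1) scale each such point lies well below the others and can raise r. The Lbr and Lmna values without these points were not computed.

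Neighbouring annotation limits some counts. Genes of the table overlap Lbr (Dnah14), Lmnb1 (Marchf3), Cbx3 (Hnrnpa2b1), Cbx5 (Hnrnpa1) and Casz1 (Gm15969 and Gm13205) on the opposite strand, and the sources used here do not state whether strand was used in counting. The 2 partners of Casz1 had 6 to 23 transcripts in a library, against the 8665 and 9315 of Casz1.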

How the data were processed

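Per the labels, a 3′ PIPseq kit was used, with pipseeker 3.3.0 for the reads and GRCm39 as the genome. The authors used CellBender to reduce ambient RNA and discarded nuclei outside 500 to 10000 transcripts or at 20% mitochondrial transcripts or more. Matrices were deposited as whole counts of unique molecular identifiers (UMIs) per gene and nucleus. The deposited cell tables give transcript counts, clusters and cell types, used as annotated. The authors' mitochondrial percent and size factor (a ratio to a constant) entered no level. The authors' mean signal per genotype in the gene table is the mean of counts per 10000, checked here within rounding, and was not used further.

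Counts were summed over nuclei and scaled to 1000000 per population (CPM). Ratios have exact conditional intervals and levels exact Poisson intervals at 95%. A count of 0 was set to 3 counts in ratios. Genes at 10 CPM or more in 1 library were counted as different at 2-fold. No test was made between single libraries. No doublet caller was run, and leaving out the 5% of nuclei with most UMIs was an alternative.

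Clusters were checked against marker lists of 12 classes by their 10 leading genes, ranked by summed UMIs and by nuclei with the gene. From each related list, the 2 highest and 2 lowest genes in photoreceptors were named. Some results are not reported here. Likeness was Pearson's r of log2(CPM + 1) over classes with at least 50 nuclei, among genes at 20 CPM or more, 2 genes being named for each member. Members and lists were chosen with earlier results of these data known. The intervals were tried on simulated all-nuclei counts with counting error alone, for genes at 10 CPM or more in Cre-. This checks the calculation and does not cover differences between animals, pools or nuclei, or the smallest counts given here. Python 3.11.15, numpy 2.4.6, scipy 1.17.1 and pandas 2.3.3 were used.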

Additional observations from a re-analysis of the deposited data

How the results depend on the processing

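Of 280 alternative values of the single genes, 277 kept the sign. Of the same values, 27 moved outside the main interval without reversal, among them 15 of the 80 in photoreceptors. The Lbr log2 ratio in photoreceptors changed sign, to -0.14, in cone-annotated nuclei only. There it rested on 25 Cre- transcripts, and the intervals of the levels overlapped. Ratios whose main interval held 0 changed sign for Lbr in amacrine cells (-0.15) and Cbx3 in ganglion cells (-0.12). Casz1 in photoreceptors ranged from -0.60 to -0.40 and Lmnb1 from -0.56 to -0.34 over 10 alternatives, Cbx1 from 0.23 to 0.54 and Lmna from 0.08 to 0.88. In amacrine cells, 2 genes in place of 1 passed 2-fold with TMM or median-of-ratios factors or at least 1000 UMIs (Lmnb2 and Cbx1) and with 1000 to 2000 UMIs, without the 5% of nuclei with most UMIs or without the nucleus with most UMIs of the gene (Lmnb2 and Lmna). In ganglion cells, 1 gene in place of 0 did with 1000 to 2000 UMIs (Lmnb2, 1.16). Over all genes, the number past 2-fold was 1868 at a minimum of 1 CPM and 262 at 50 CPM in all nuclei, 2845 and 379 in photoreceptors, 3177 and 290 in amacrine cells and 2388 and 129 in ganglion cells. With 1000 to 2000 UMIs it was 2125 in amacrine and 1990 in ganglion cells. The cause was not tested. TMM moved photoreceptor ratios by -0.19 and those of all nuclei by -0.10. The photoreceptor shift is larger than the lower bounds of Lbr (0.12), Lmnb2 (0.14), Cbx3 (0.17) and Cbx5 (0.13). Under TMM these ratios were therefore not separated from 0, and Cbx5 stood at 0.07. The lower bound of Cbx1 (0.26) is larger than the shift. Transcript counts limit Lmna, Lbr and Lmnb2 outside photoreceptors. No paired analysis was possible because each genotype is 1 library.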
